A study of Homo sapiens with 3 samples.

Results

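Transcript starts of 69 genes for splicing factors were measured in the cell line EBC-1, established from a human squamous carcinoma of the lung. The assay was CAGE (cap analysis of gene expression), in which short sequence tags are read from capped 5′ ends of RNA and counted. The genes were those of the 13479 listed whose symbol begins with SRSF, HNRNP, SNRP, SF3A, SF3B, U2AF or PRPF, after 5 pseudogene entries of the same name stems were set aside, so the rule uses names and no measured value. They comprised 12 SR proteins, 19 hnRNP proteins, 8 Sm core proteins, 4 SNRP proteins specific to the U1 or U2 particle, 9 SF3A and SF3B subunits, 3 U2AF genes and 13 PRPF genes. The last of the 69, HNRNPU-AS1, matched the symbol rule but is named as an antisense RNA and not as a protein gene. There were 3 libraries in 3 groups of 1 library each, namely RAB11A siRNA 1, RAB11A siRNA 2 and a negative control siRNA. RAB11A encodes a small GTPase of recycling endosomes. All 3 cultures had received 600 pmol of siRNA by electroporation, the control included, with a labelled time of 72 h after plating, and total RNA was taken from whole cultures.

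Splicing removes introns in a large RNA and protein machine, the spliceosome, built from the U1, U2, U4, U5 and U6 small nuclear ribonucleoproteins (snRNPs). Sm proteins form a ring around most of these small nuclear RNAs, while the SF3A and SF3B complexes and U2AF bring U2 to the branch point and the 3′ splice site. SR and hnRNP proteins bind the pre-mRNA and favour or repress the use of nearby splice sites. Many SR and hnRNP genes are known to control their own mRNA by producing isoforms that are degraded, a step that lies downstream of the transcript start.

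Values are in CPM, tags scaled to a common library total. The steps between values put 1 tag at 0.04 CPM in every library. Totals were searched only in a narrow range that fits this step. The middle of the totals that fitted best, 24999950 tags, was used for each library. Tags recovered over all entries summed to more, 25204585, 25137457 and 25174787 in the siRNA 1, siRNA 2 and control libraries. The total used is therefore not a measured depth, and its exact equality between libraries reflects that search. Why the step was the same in all libraries was not given in the sources used here. CAGE counts starts and not fragments along the transcript, so levels of different genes were compared without a correction for length. A ratio is the log2 ratio of (CPM + 1), and its error is the standard error of counting (SE), which covers counting error only. Only genes averaging 5 CPM (125 tags) or more over the libraries were compared, which kept 10788 genes and 67 of the 69 splicing factors. A gene was counted as higher when its CPM + 1 was at least 25% above the other library's and as lower when it was at least 20% below, both of which are 0.322 on the log2 scale. With 1 library a group no difference has a replicate check, p-values enter only as the calls given last, and both siRNA libraries were set against the same control library. In a bulk culture, fewer cells that use a gene and fewer transcripts per cell cannot be told apart.

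Knockdown was read first at the target. RAB11A stood at 7.48, 22.7 and 135 CPM in the siRNA 1, siRNA 2 and control libraries, so that 5.53% of the control level was left by siRNA 1 (interval 4.75 to 6.41%, exact, 95%) and 16.8% by siRNA 2 (interval 15.3 to 18.3%). Of 15 epithelial and squamous marker genes 7 were listed, and they summed to 1209, 1064 and 1025 CPM in the siRNA 1, siRNA 2 and control libraries. The 7 were KRT18, PERP, EPCAM, KRT8, KRT19, SFN and S100A2. KRT5, KRT6A, KRT14, KRT17, TP63, DSG3, DSC3 and CDH1 had no entry under these symbols, so the squamous origin rests on the label. Of 16 markers of blood, endothelial, connective tissue, alveolar, airway and neuroendocrine cells 3 were listed (COL1A1, NCAM1 and COL1A2), with sums of 6.28, 5.36 and 5.44 CPM.

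The sequences of both siRNAs against RAB11A are shown because each could also pair with other transcripts through its seed. Capitals mark the bases that the guide's positions 2 to 8 would match, with the given strand read as the sense strand, 5′ to 3′.
RAB11A siRNA 1: gcauccagguuGAUGGAAa
RAB11A siRNA 2: agcaagagcuuUUGCAGAa
The 7-base site of siRNA 1 was present in the annotated 3′ UTR of 7 of 65 splicing factors with such a UTR (10.8%), against 14.6% of 9599 genes. Those 7 members, among them PRPF19, SRSF1 and SRSF3, had a median log2 ratio to control of 0.09 with siRNA 1, and the members without the site had 0.04, whereas over all genes the medians were -0.08 with the site and -0.02 without. The site of siRNA 2 was present in 8 of 65 members (12.3%), against 16.1% of genes. The 8 members, among them SF3B1, SNRPD3 and SRSF10, had a median of 0.03 with siRNA 2, and those without it had 0.00, beside -0.05 with and -0.05 without it over all genes.

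Start regions of 6 members with some of the larger or smaller ratios below are shown, since CAGE reads the activity of exactly these places. Each runs from 100 bases before to 30 bases after the start annotated by RefSeq on GRCh38.p14, on the gene's own strand. Capitals mark matches, on either strand, to the CCAAT box, to GGGCGG (bound by the SP family), to CCGGAAG (bound by ETS factors), to TATAAA or to AAGATGGC (bound by YY1).
SRSF7, upstream start, chr2:38751465-38751594, minus strand: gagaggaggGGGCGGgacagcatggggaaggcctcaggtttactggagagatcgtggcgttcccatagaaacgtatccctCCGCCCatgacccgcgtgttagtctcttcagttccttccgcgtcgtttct
SRSF7, downstream start, chr2:38751332-38751461, minus strand: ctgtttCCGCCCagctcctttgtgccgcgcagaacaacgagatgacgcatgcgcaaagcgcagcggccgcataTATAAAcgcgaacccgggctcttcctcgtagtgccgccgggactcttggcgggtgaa
SNRPD2, most upstream of its starts, chr19:45692287-45692416, minus strand: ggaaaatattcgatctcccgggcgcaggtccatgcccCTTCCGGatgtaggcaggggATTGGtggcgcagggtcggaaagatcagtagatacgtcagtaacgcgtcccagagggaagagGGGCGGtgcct
SNRPA1, chr15:101295219-101295348, minus strand: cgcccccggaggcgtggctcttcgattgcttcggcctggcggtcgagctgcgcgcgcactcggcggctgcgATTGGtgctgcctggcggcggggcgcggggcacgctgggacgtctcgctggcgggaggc
HNRNPAB, chr5:178204433-178204562, plus strand: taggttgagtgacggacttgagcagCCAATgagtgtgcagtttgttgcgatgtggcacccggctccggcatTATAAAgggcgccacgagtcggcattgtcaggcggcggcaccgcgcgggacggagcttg
SF3B2, chr11:66052264-66052393, plus strand: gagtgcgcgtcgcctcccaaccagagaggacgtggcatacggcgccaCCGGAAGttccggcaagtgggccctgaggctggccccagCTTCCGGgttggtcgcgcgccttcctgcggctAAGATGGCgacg
PRPF19, chr11:60906556-60906685, minus strand: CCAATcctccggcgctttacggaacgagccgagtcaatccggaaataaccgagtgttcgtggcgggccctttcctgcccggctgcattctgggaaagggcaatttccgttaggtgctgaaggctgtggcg
The other SNRPD2 starts annotated held none of these motifs in the same stretch. The downstream SRSF7 start and the HNRNPAB start each had TATAAA shortly before the start, whereas SF3B2 had CCGGAAG at 2 places and AAGATGGC just past it. Over the full RefSeq windows, 250 bases before to 50 after, 60 of the 69 members could be matched. CCGGAAG stood in 20 of these 60 (33.3%), against 25.3% of the 7551 compared genes with a window and 12.2% of all 27305 genes. CCAAT stood in 29 (48.3%), against 44% of compared genes, and GGGCGG in 38 (63.3%), against 79.6%. TATAAA was found in 7 members (11.7%), against 7.34% of compared genes, and AAGATGGC in 5 (8.33%), against 7.61%. TGACGTCA (bound by CREB) was found in 0, against 4.13%, the palindrome bound by NRF1 in 0, against 3.03%, and TTTGGCGC (bound by E2F) in 1 (1.67%), against 1.60%. A C at the start followed by 4 pyrimidines was found in 5 (8.33%), against 7.52%. These are matches of letters, and which annotated start carried the tags was not given in the sources used here.

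Splicing factor genes were strongly used in EBC-1 cells. Together the 69 entries took 1.70, 1.64 and 1.60% of all gene tags in the siRNA 1, siRNA 2 and control libraries, with sums of 17108, 16446 and 16145 CPM. The median member stood at 178, 180.2 and 189 CPM, whereas the median of all tested genes was 30.7, 30.2 and 31.6 CPM. The highest was HNRNPA2B1, which packages nascent transcripts, at 1533, 1419.7 and 1345 CPM. SRSF12, a relative of SRSF10, stood at 1.44, 2.32 and 2.44 CPM and PRPF40B, a U1-associated protein, at 2.36, 2.24 and 2.32 CPM, and these were the 2 members below the minimum mean.

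**Figure D1:**
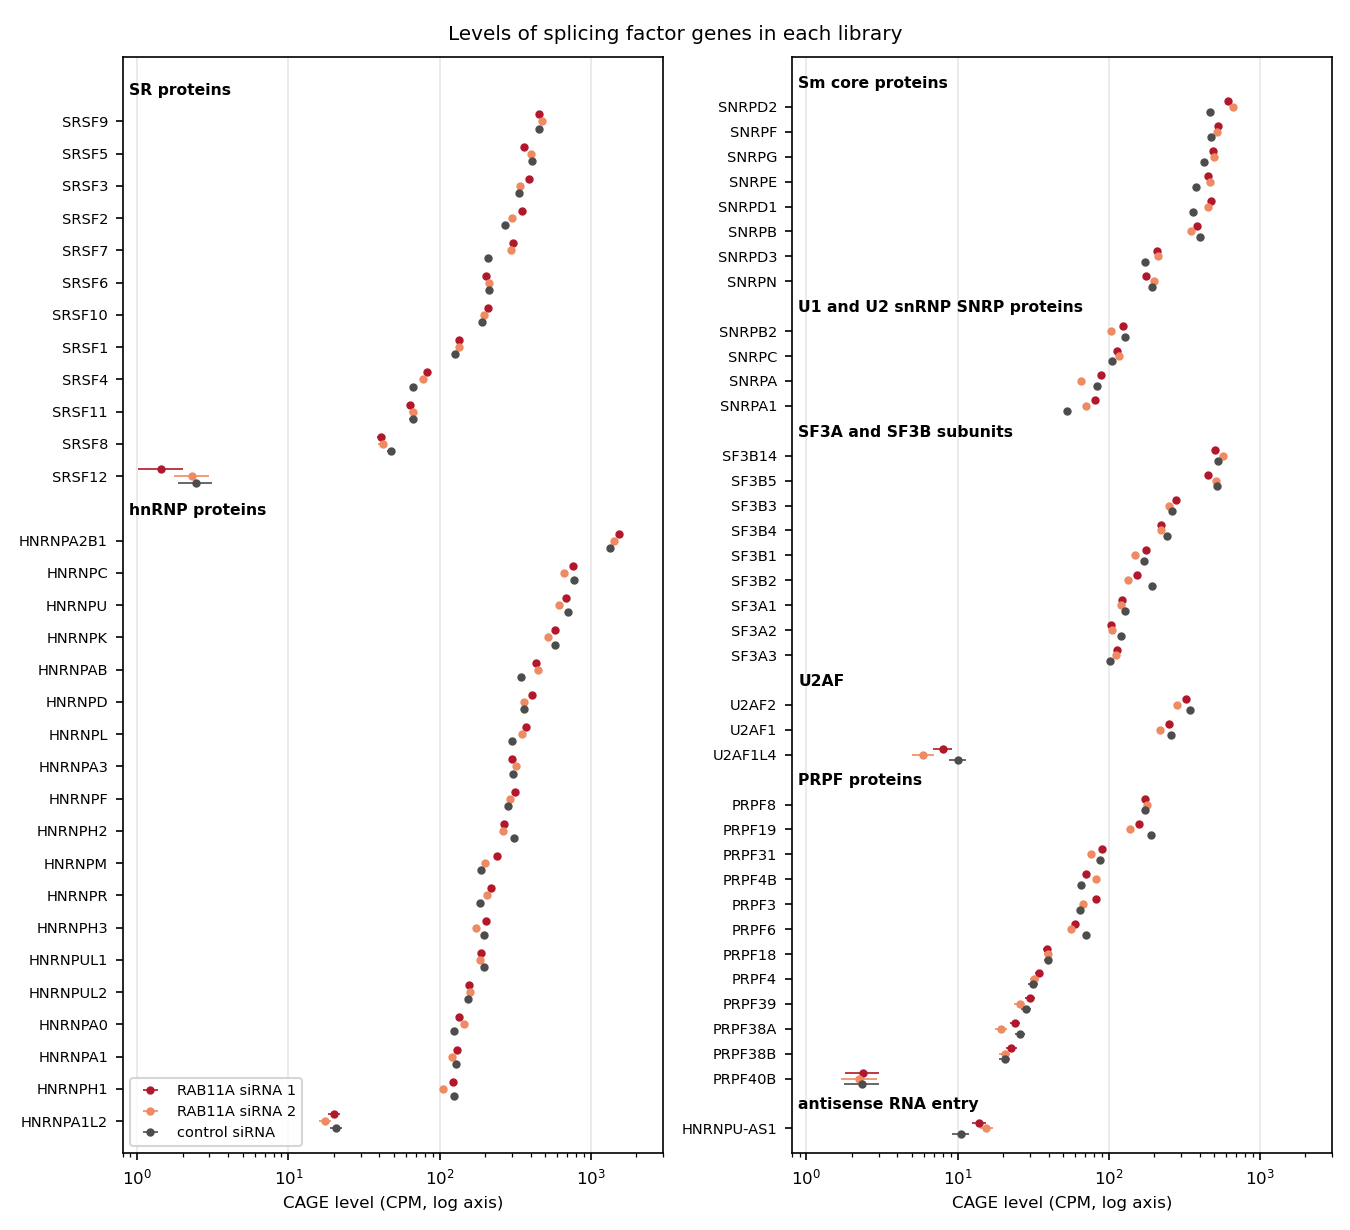
Levels of the splicing factor entries reported here in each library, in CPM on a log axis, grouped by role class, with RAB11A siRNA 1 and siRNA 2 drawn above the control siRNA and bars for 95% exact Poisson intervals. The 3 values of a gene lie close together relative to the range between genes, which runs from 1.44 CPM for SRSF12 to 1533 CPM for HNRNPA2B1.

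With siRNA 1, 9 of the 67 compared members (13.4%) were at least 25% higher than in the control library, where 10.2% of all genes were, and 0 were at least 20% lower, where 11.6% of all genes were. The 9 were SRSF2, SRSF7, HNRNPAB, HNRNPM, SNRPD1, SNRPD2, SNRPA1, PRPF3 and HNRNPU-AS1. The median log2 ratio of the members was 0.05, beside -0.03 for all genes, and the members ranged between -0.31 for SF3B2 and 0.60 for SNRPA1. With siRNA 2, 6 members (8.96%) were at least 25% higher than control, against 6.0% of all genes, and 5 (7.46%) were at least 20% lower, against 11.2%. The 6 were SRSF7, HNRNPAB, SNRPD2, SNRPA1, PRPF4B and HNRNPU-AS1, and the 5 were SNRPA, SF3B2, U2AF1L4, PRPF19 and PRPF38A. The members' median with siRNA 2 was 0.00, beside -0.04 for all genes, and the range was from -0.67 for U2AF1L4 to 0.52 for HNRNPU-AS1. Scaling by TMM moved the siRNA 2 split of the members to 9 higher (13.4%) and 4 lower (5.97%), and that of all genes to 8.31% higher and 8.0% lower. A 2-fold difference was reached by 0 members in either library. Of all genes, 0.371% and 0.519% were 2-fold higher and lower with siRNA 1, and 0.195% and 0.269% with siRNA 2. These shares are too small for 0 of 67 members to set the members apart.

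Some of these counts rest on genes with an annotated start that has near copies elsewhere in the genome, where tags could be split or shared. For 67 members, 739 annotated starts were searched, and 10 with more than 20 matches were set aside as repeats. A matching start need not be the one that carried the tags. In 17 members the first 50 bases of at least 1 start matched another place with 2 or fewer mismatches. They were SRSF6, SRSF10, HNRNPA1, HNRNPA3, HNRNPC, HNRNPH1, HNRNPK, HNRNPL, HNRNPR, HNRNPU, SNRPD2, SNRPE, SNRPA1, SF3A3, PRPF3, PRPF4B and PRPF38A. Without these 17 and the unsearched entries, 48 members were left. Of these, 5 (10.4%) were higher with siRNA 1 (HNRNPAB, HNRNPM, SNRPD1, SRSF2 and SRSF7), against 10.2% of all genes, and 0 were lower. With siRNA 2, 2 (4.17%) were higher (HNRNPAB and SRSF7), against 6.0% of all genes, and 4 (8.33%) were lower (PRPF19, SF3B2, SNRPA and U2AF1L4), against 11.2%.

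**Figure D2:**
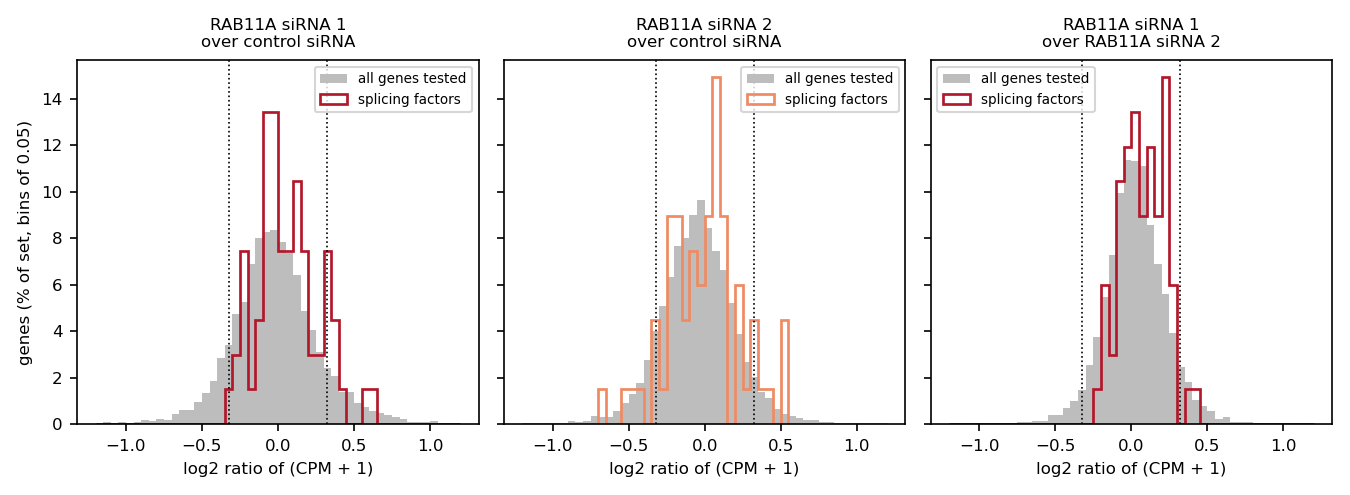
Distribution of log2 ratios of (CPM + 1) for all 10788 compared genes and for the 67 compared splicing factors, as the share of genes per bin, with siRNA 1, siRNA 2 and the ratio between the siRNA libraries in separate panels. Dotted lines mark 25% higher and 20% lower, and the medians of the members are 0.05, 0.00 and 0.08.

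Among SR proteins, SRSF7 stood apart. SRSF7 (ENSG00000115875, chr2:38970741-38978636, minus strand, GRCh37), an SR protein with a zinc knuckle that also acts in mRNA export, stood at 307, 297 and 209 CPM in the siRNA 1, siRNA 2 and control libraries, from 7681, 7423 and 5220 tags. Both siRNA libraries were above control, with log2 ratios of 0.56 (SE 0.026) with siRNA 1 and 0.51 (SE 0.026) with siRNA 2. The siRNA libraries differed from each other by 0.05 (95% counting interval 0.00 to 0.09). SRSF3, the SR protein closest to SRSF7 in build, stood at 390.0, 338 and 337 CPM, so that siRNA 1 was above the rest and siRNA 2 was level with control. SRSF2, which binds exonic enhancers and shapes splice site choice, stood at 350.2, 299.8 and 272 CPM, a log2 ratio of 0.36 (SE 0.023) with siRNA 1 and 0.14 (SE 0.024) with siRNA 2. Its values are identical to those of the MIR636 entry, a microRNA gene inside SRSF2, so the same tags were counted for both.

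Each of the other compared SR genes lay closer to control than SRSF7. SRSF4, a long SR protein, stood at 83.04, 77.9 and 66.5 CPM, with ratios of 0.32 and 0.23. SRSF1, the founding member of the family, stood at 135, 135 and 127 CPM. SRSF9, the most abundant SR gene by starts, stood at 455, 477 and 458 CPM and differed little between libraries. On the lower side were SRSF5, a close relative of SRSF4 and SRSF6, at 362, 401 and 408 CPM, and SRSF8, an SRSF2-like gene, at 41.2, 41.96 and 47.9 CPM. SRSF8 had the lowest ratios of the class, -0.21 (SE 0.060) and -0.19 (SE 0.060). SRSF6, SRSF10 and SRSF11, which complete the class, lay between -0.07 and 0.13 with siRNA 1 and between 0.00 and 0.06 with siRNA 2. The median log2 ratio of the 11 compared SR genes was 0.09 with siRNA 1 and 0.06 with siRNA 2. The 25% mark was passed by 2 of the 11 with siRNA 1, against 10.2% of all genes, and by 1 with siRNA 2, against 6.0%. Counts this small do not set the class apart. SRPK1, a kinase that phosphorylates SR proteins for their entry into the nucleus, is not itself in the SR class. It stood at 154, 145 and 112 CPM, with ratios of 0.45 and 0.37. These were the highest among the 10 splicing kinases and phosphatases compared, whose medians were -0.05 with siRNA 1 and -0.23 with siRNA 2. SRPK2 lay below control, at -0.17 and -0.26.

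**Figure D3:**
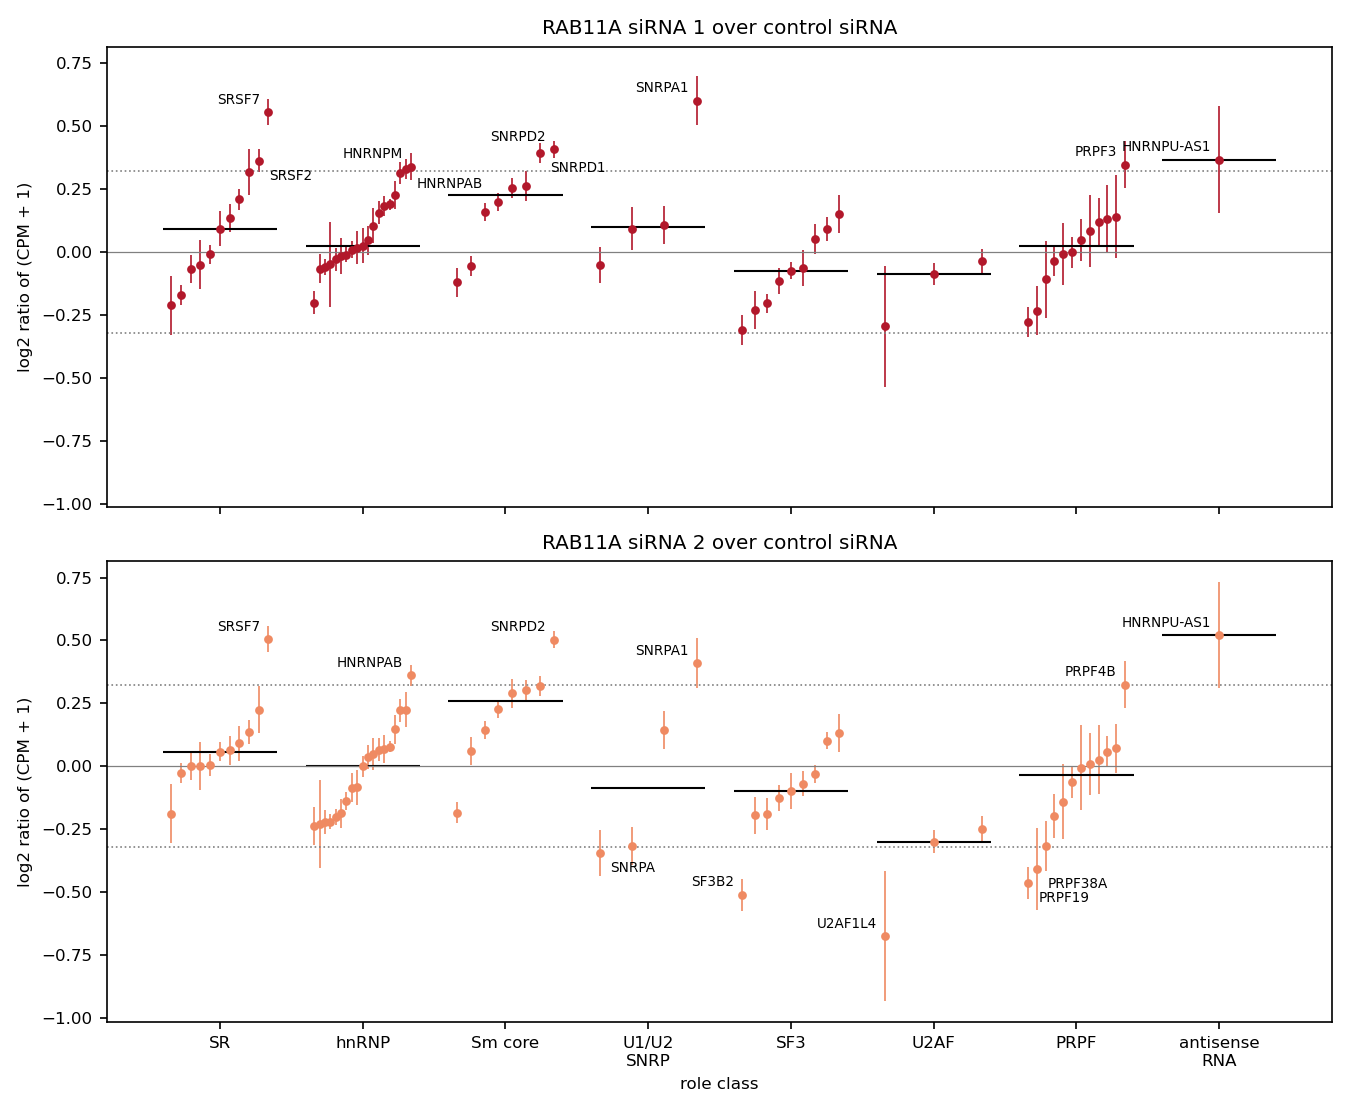
Log2 ratio of (CPM + 1) to the control library for the 67 compared members by role class, with siRNA 1 in the upper panel and siRNA 2 in the lower. Bars are 95% counting intervals, horizontal lines are class medians and dotted lines mark 25% above and 20% below control, beyond which 9 members lie with siRNA 1 and 11 with siRNA 2. Of all genes, 10.2% were higher and 11.6% lower with siRNA 1, and 6.0% and 11.2% with siRNA 2.

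The hnRNP class held the most abundant starts and, with siRNA 1 and siRNA 2, medians of 0.02 and 0.00. The siRNA 2 median lay just below 0 and turned to 0.05 under TMM scaling. HNRNPAB (ENSG00000197451, chr5:177631534-177638164, plus strand, GRCh37), an RNA-binding protein related to HNRNPD, stood at 437, 447 and 348 CPM in the siRNA 1, siRNA 2 and control libraries. Both siRNA libraries lay above control, by 0.33 (SE 0.021) with siRNA 1 and 0.36 (SE 0.021) with siRNA 2. HNRNPL, a binder of CA-rich RNA, stood at 375, 352 and 302 CPM, with ratios of 0.31 and 0.22 that stayed under the 25% mark. HNRNPM, which binds GU-rich RNA, stood at 239.6, 199 and 189 CPM. Its siRNA 1 value was above the other libraries, with ratios to control of 0.34 (SE 0.028) and 0.07 (SE 0.029) for siRNA 1 and siRNA 2, and the siRNA libraries differed by 0.27 (SE 0.028).

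Several of the most abundant hnRNP genes were lowest in the siRNA 2 library. HNRNPC, which binds U-rich tracts and shields Alu sequences from splicing, stood at 768, 664 and 774 CPM. HNRNPU, a nuclear scaffold protein, stood at 682, 618 and 711 CPM. HNRNPK, which binds C-rich RNA and DNA, stood at 581, 525 and 577 CPM. For each of these 3, siRNA 1 was close to control, and the ratios of siRNA 2 to control were -0.22, -0.20 and -0.14. Among all genes these siRNA 2 ratios stood only at percentiles 21.5, 24.1 and 34.1. HNRNPA2B1, the most abundant of the class, was above control in both siRNA libraries, at log2 ratios of 0.19 and 0.08. HNRNPH1, a binder of G-runs, stood at 122, 105 and 124 CPM, with a siRNA 2 ratio of -0.24 that was the lowest of the class. Starts of HNRNPC, HNRNPU, HNRNPK and HNRNPH1 matched 3, 1, 4 and 2 other places in the genome. HNRNPH2, a relative of HNRNPH1, stood at 268, 265 and 309 CPM, below control in both siRNA libraries, at log2 ratios of -0.20 and -0.22. A readthrough entry, RP1-164F3.9, lies over HNRNPH2 on the same strand and stood at 218, 220.2 and 206 CPM, so starts in that stretch may be counted under either entry.

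HNRNPA1, a classic splicing repressor and partner of HNRNPA2B1, stood at 131, 121 and 128 CPM, far below HNRNPA2B1 in every library. A start of HNRNPA1 matched 26 other places in the genome. Its pseudogene entry HNRNPA1P7 was listed at 215, 178 and 203 CPM, above the gene itself. The 4 listed entries of this stem, HNRNPA1, HNRNPA1L2, HNRNPA1P7 and HNRNPA1P8, summed to 366, 318 and 353 CPM in the siRNA 1, siRNA 2 and control libraries. HNRNPU-AS1, antisense by its name, stood at 13.8, 15.5 and 10.5 CPM, or 345, 387 and 262 tags. Its ratios were 0.37 (SE 0.11) and 0.52 (SE 0.11), while HNRNPU itself was below control at log2 ratios of -0.06 and -0.20. Both entries are listed on the minus strand, and HNRNPU-AS1 was not found in the annotation used. Its antisense origin therefore rests on the name, and whether its tags came from HNRNPU was not tested. The hnRNP genes not yet given were HNRNPD, HNRNPA3, HNRNPF, HNRNPR, HNRNPH3, HNRNPUL1, HNRNPUL2, HNRNPA0 and HNRNPA1L2. With siRNA 1 they lay between -0.07 for HNRNPUL1 and 0.23 for HNRNPR, and with siRNA 2 between -0.23 for HNRNPA1L2 and 0.23 for HNRNPA0. HNRNPUL2 has values identical to those of the entry RP11-831H9.16.

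The Sm core genes had the highest median of the 7 protein classes, 0.23 with siRNA 1 and 0.26 with siRNA 2. SNRPD2 (ENSG00000125743, chr19:46190718-46195827, minus strand, GRCh37), which encodes the Sm ring protein D2, stood at 618, 660.2 and 466 CPM in the siRNA 1, siRNA 2 and control libraries, from 15447, 16506 and 11643 tags. Both siRNA libraries exceeded control, by 0.41 (SE 0.018) with siRNA 1 and 0.50 (SE 0.017) with siRNA 2. A pseudogene entry, SNRPD2P1, stood at 91.5, 90.3 and 67.2 CPM, and the sums of both entries, 709, 751 and 533 CPM, gave ratios of 0.41 and 0.49. SNRPD1, the partner of D2 in the ring, stood at 476, 452 and 363 CPM, with ratios of 0.39 (SE 0.020) and 0.32 (SE 0.020). The siRNA 2 ratio lay just under the 25% mark.

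The other ring proteins were SNRPE at 451, 467 and 378 CPM, SNRPF at 527, 522 and 472 CPM, SNRPG at 487, 497 and 424 CPM and SNRPD3 at 208, 213 and 174 CPM. Control was the lowest library for each of them. Counting intervals of all 6 genes from D1 to G lay above 0 in both comparisons with control, which share the control library. Their log2 ratios ran from 0.16 to 0.41 with siRNA 1 and from 0.15 to 0.50 with siRNA 2. Of the 67 compared members, 28 had such an interval with siRNA 1 and 26 with siRNA 2, and the share of all genes was not computed. At these levels small ratios clear 0, as for SNRPF, at percentiles 77.4 and 80.6 of all genes with siRNA 1 and siRNA 2. Between the siRNA libraries the same 6 genes had a median of -0.03 and ran from -0.10 to 0.07. With TMM scaling 4 of the 8 Sm genes, instead of 1, passed the 25% mark in the siRNA 2 library, while the siRNA 1 count was 2 under both scalings. Over all genes the share past that mark with siRNA 2 was 8.31% with TMM scaling and 6.0% without. With siRNA 1 it was 11.6% with TMM scaling and 10.2% without.

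SNRPB and SNRPN, which encode the Sm proteins B and N that take the same place in the ring, were not above control in both siRNA libraries. SNRPB stood at 385, 352 and 399.8 CPM, below control in both siRNA libraries, at log2 ratios of -0.06 (SE 0.021) and -0.18 (SE 0.021). SNRPN, an imprinted gene, stood at 177, 201 and 192 CPM, with siRNA 1 lowest and siRNA 2 highest. The SNURF entry, whose transcript is shared with SNRPN, stood at 177, 201 and 193 CPM, so most tags were counted for both.

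**Figure D4:**
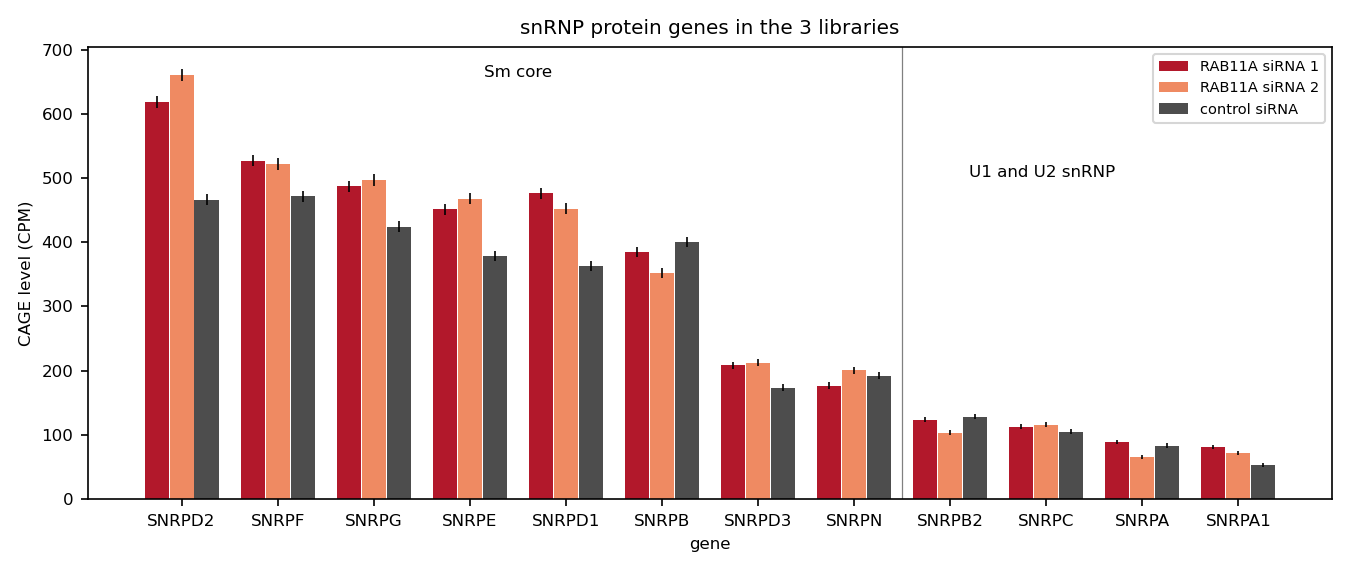
Levels in CPM, with 95% exact Poisson intervals, of the 8 Sm core genes and of the 4 SNRP genes specific to U1 or U2 in the siRNA 1, siRNA 2 and control libraries. SNRPD2 stands at 618, 660.2 and 466 CPM and SNRPB at 385, 352 and 399.8 CPM, so the ring genes did not all share 1 order of libraries.

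The SNRP genes specific to U1 or U2 differed in direction. SNRPA1 (ENSG00000131876, chr15:101821715-101835487, minus strand, GRCh37), the U2 protein A′, stood at 81.3, 71.2 and 53.3 CPM in the siRNA 1, siRNA 2 and control libraries. Its ratios to control, 0.60 (SE 0.050) with siRNA 1 and 0.41 (SE 0.051) with siRNA 2, put both siRNA libraries above control. A start of SNRPA1 has 2 near copies in the genome. SNRPB2, the protein that pairs with A′ on the U2 RNA, stood at 124, 103 and 128 CPM, with siRNA 1 near control at -0.05 and siRNA 2 lower at -0.32 (SE 0.038). SNRPA, the U1 protein A, stood at 88.8, 65.3 and 83.2 CPM. Here siRNA 1 was highest and siRNA 2 lowest, with ratios to control of 0.09 (SE 0.044) and -0.34 (SE 0.047). SNRPC, the U1 protein that stabilises pairing with the 5′ splice site, stood at 113, 116 and 105 CPM.

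SF3A and SF3B genes, whose products grip the branch point within U2, had medians of -0.07 with siRNA 1 and -0.10 with siRNA 2. SF3B2 (ENSG00000087365, chr11:65818200-65836779, plus strand, GRCh37), a large SF3B subunit, stood at 155, 135 and 192 CPM in the siRNA 1, siRNA 2 and control libraries. Both siRNA libraries were below control, at log2 ratios of -0.31 (SE 0.031) and -0.51 (SE 0.032), and the siRNA 2 value alone was at least 20% lower. The entries snoU13 and RP11-1167A19.14 have values identical to SF3B2, so 1 set of tags lies behind all 3. SF3B1, the subunit that encloses the branch point adenosine, stood at 178, 150.1 and 171 CPM, near control with siRNA 1 (0.05) and lower with siRNA 2 (-0.19).

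The smaller SF3B subunits were the most abundant of the class. SF3B14, the older symbol of SF3B6, which contacts the branch point, stood at 503, 569 and 529.8 CPM, and SF3B5 stood at 453, 512 and 523 CPM. For both, siRNA 1 was the lowest library, with ratios of -0.07 and -0.20, and siRNA 2 lay at 0.10 and -0.03. SF3A2, an SF3A subunit, stood at 103, 105 and 121 CPM, below control in both siRNA libraries at log2 ratios of -0.23 and -0.19. SF3A3, its partner subunit, stood at 114, 112 and 102 CPM, above control in both by 0.15 and 0.13. SF3B3, SF3B4 and SF3A1 lay between -0.11 and 0.09 with siRNA 1 and between -0.13 and -0.07 with siRNA 2.

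U2AF genes were lower with siRNA 2 than in either other library. U2AF2, the large subunit that reads the polypyrimidine tract, stood at 326, 281 and 346 CPM, with ratios to control of -0.09 (SE 0.022) and -0.30 (SE 0.023). U2AF1, the small subunit that reads the AG at the 3′ splice site, stood at 252, 217 and 258 CPM, with ratios of -0.04 and -0.25 (SE 0.026). U2AF1L4, a U2AF1-like gene, stood at 8.0, 5.92 and 10.04 CPM, or 200, 148 and 251 tags, and its siRNA 2 ratio of -0.67 (SE 0.13) was the lowest of all members. Its values equal those of the entry AD000671.6 on the same strand, and at so few tags its interval is wide, -0.93 to -0.42.

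PRPF genes, which encode parts of the U4/U6.U5 tri-snRNP and the factors that activate it, had medians of 0.02 with siRNA 1 and -0.03 with siRNA 2, and the siRNA 2 median turned to 0.01 under TMM scaling. PRPF19 (ENSG00000110107, chr11:60658019-60674057, minus strand, GRCh37), the ubiquitin ligase at the centre of the PRP19 complex, stood at 158, 139 and 192 CPM in the siRNA 1, siRNA 2 and control libraries. Both siRNA libraries were below control, at log2 ratios of -0.28 (SE 0.031) and -0.46 (SE 0.032), and the siRNA 2 value was at least 20% lower. PRPF6, which bridges U5 and U4/U6, stood at 60.04, 56.6 and 70.8 CPM, with ratios of -0.23 and -0.32. PRPF38A, a factor of spliceosome activation, stood at 23.96, 19.3 and 25.9 CPM, with siRNA 2 lowest at -0.41 (SE 0.083), and a start of it has 1 near copy.

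On the higher side stood PRPF3, a U4/U6 protein, at 82.2, 67.8 and 64.4 CPM, with ratios of 0.35 (SE 0.047) and 0.07 (SE 0.049). PRPF3 starts matched 14 other places in the genome and PRPF4B starts 2. PRPF4B, a kinase of the tri-snRNP, stood at 71.2, 82.2 and 65.4 CPM, with siRNA 2 highest at 0.32 (SE 0.047) and siRNA 1 at 0.12. PRPF8, the large U5 protein at the catalytic core, stood at 173, 180.2 and 173 CPM, within 0.06 of control in both siRNA libraries. PRPF31, PRPF18, PRPF4, PRPF39 and PRPF38B lay between -0.01 and 0.14 with siRNA 1 and between -0.20 and 0.03 with siRNA 2.

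Between the siRNA libraries themselves, 2 members were at least 25% higher with siRNA 1 than with siRNA 2, against 6.34% of all genes, and 0 were at least 20% lower, against 4.0%. At 2-fold 0 members differed either way, where 0.167% of all genes were higher and 0.185% lower, shares again too small to set the members apart. SNRPA, at 0.44 (SE 0.046), and U2AF1L4, at 0.38 (SE 0.14), were the 2 past the 25% mark. The members ranged from -0.21 for PRPF4B to 0.44 for SNRPA. The median of the members was 0.08, beside 0.02 for all genes. Class medians were 0.23 for the U1 and U2 SNRP genes, 0.21 for U2AF, 0.12 for PRPF and 0.11 for hnRNP genes, against -0.03 for the Sm core. SR and SF3 medians, 0.00 and 0.02, turned to -0.02 and -0.01 under TMM scaling.

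Other parts of the splicing machinery were read from 8 lists of 170 genes, of which 157 were compared. With siRNA 1, 9 of the 157 (5.73%) were at least 25% higher than control, against 10.2% of all genes, and 6 (3.82%) at least 20% lower, against 11.6%. With siRNA 2, 4 (2.55%) were higher, against 6.0%, and 18 (11.5%) lower, against 11.2%. LSm genes encode proteins of rings that resemble the Sm ring, and 7 of the 8 sought were compared, LSM1 to LSM7. They are not the set of 1 single ring. Their medians were 0.24 with siRNA 1 and 0.20 with siRNA 2, and 3 passed the 25% mark with siRNA 1. LSM7 stood at 292, 284 and 221 CPM in the siRNA 1, siRNA 2 and control libraries and had the highest ratios of these genes, 0.40 and 0.36. LSM2 had the lowest, 0.08 and -0.04. The 28 genes of the PRP19 complex and of the catalytic steps, PRPF19 itself not among them, had medians of -0.05 and -0.21. Of these 28, 2 (7.14%) were lower with siRNA 1, against 11.6% of all genes, and 9 (32.1%) with siRNA 2, against 11.2%. Under TMM scaling the 9 became 4 (14.3%), against 8.0% of all genes.

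PLRG1, a core protein of the PRP19 complex, stood at 61.6, 58.5 and 82.2 CPM, with both siRNA libraries below control at log2 ratios of -0.41 (SE 0.048) and -0.48 (SE 0.049). SYF2, another component of that complex, stood at 158, 170.3 and 215 CPM, with ratios of -0.44 and -0.33. TXNL4A, a small U5 protein, stood at 122, 174 and 167 CPM, where siRNA 1 alone was low. Its ratio of siRNA 1 to siRNA 2, -0.51 (SE 0.034), was the lowest of the 157. DDX23, the helicase that acts on the tri-snRNP, stood at 43.6, 46.5 and 34.6 CPM, above control in both siRNA libraries. Among regulators, CIRBP, a cold-inducible RNA-binding protein, had the lowest ratios of the 157, at 31.2, 33.1 and 47.7 CPM, -0.60 (SE 0.065) with siRNA 1 and -0.51 (SE 0.064) with siRNA 2. QKI, which binds introns near alternative exons, stood at 142, 105 and 145 CPM, low with siRNA 2 only.

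**Figure D5:**
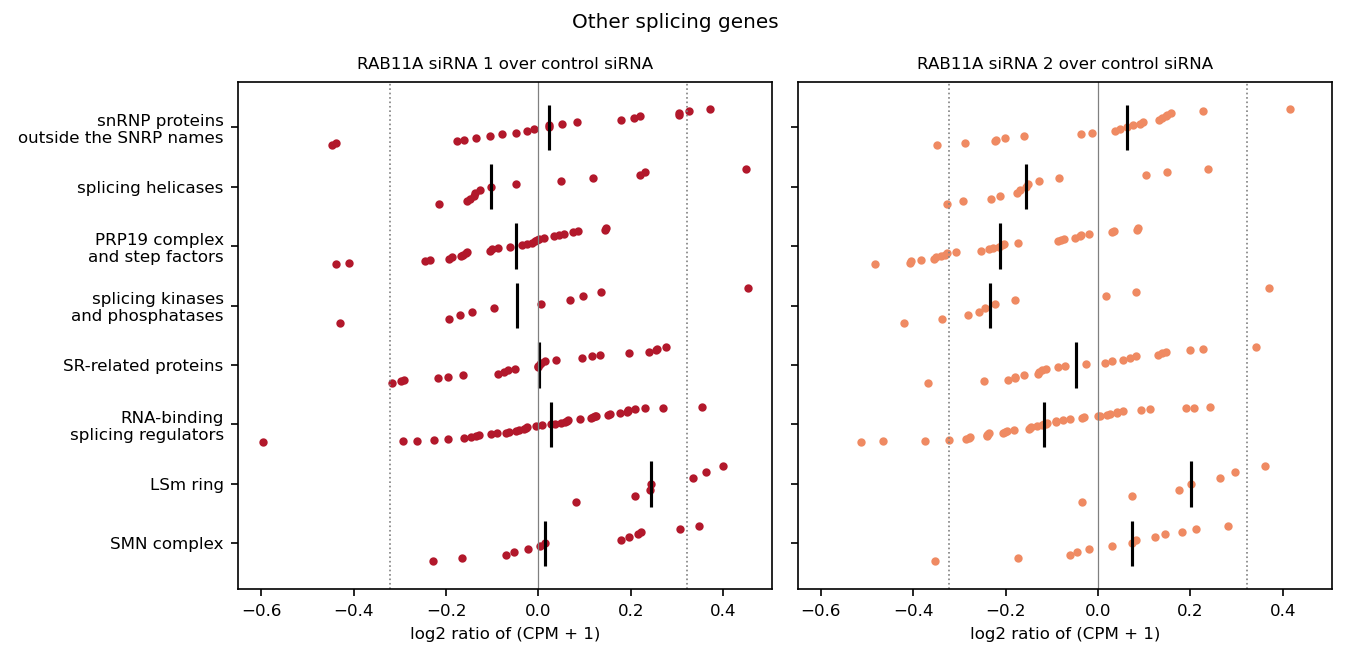
Log2 ratio of (CPM + 1) to the control library for the compared genes of 8 lists of other splicing genes, with siRNA 1 and siRNA 2 drawn separately and the median of each list marked. The medians of the LSm genes, labelled LSm ring, lie at 0.24 and 0.20 and the PRP19 complex medians at -0.05 and -0.21.

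When both siRNA libraries were taken as 1 group against the single control library, 0 members passed an adjusted p of 0.05 over all 10788 genes by limma or by edgeR's quasi-likelihood test with Benjamini-Hochberg adjustment. Over all genes limma called 6 higher (0.0556%) and 9 lower (0.0834%), and edgeR 4 higher (0.0371%) and 9 lower. At an unadjusted p of 0.05 limma gave 7 members higher and 2 lower, and edgeR 8 higher and 3 lower, where limma gave 5.78% and 8.22% of all genes and edgeR 5.89% and 8.46%. The 7 were SNRPD3, SRSF7, SNRPD2, SNRPA1, SNRPD1, HNRNPU-AS1 and HNRNPAB, and the 2 were SF3B2 and PRPF19. This fit assumes that the lone control library varies as the siRNA libraries do, which were made with different siRNAs.

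The recovered tags were also compared pair by pair with an exact binomial test at an adjusted p of 0.05, which compares these libraries and not the conditions. The test calls smaller differences where a gene has more tags. The median member stood at 178, 180.2 and 189 CPM in the siRNA 1, siRNA 2 and control libraries, against 30.7, 30.2 and 31.6 CPM for tested genes. Counts of members and shares of all genes are therefore not on an equal footing here. With siRNA 1 against control, 27 of the 67 members were called higher and 17 lower, where 23.3% and 29.1% of all genes were. With siRNA 2 against control, 24 were higher and 26 lower, where 18.4% and 29.9% of all genes were. Between siRNA 1 and siRNA 2, 31 were higher with siRNA 1 and 11 lower, where 21.4% and 15.4% of all genes were.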

How the data were processed

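Total RNA of electroporated EBC-1 cells went into CAGE, with 1 library per siRNA. The table deposited by the authors holds CPM by gene and strand, a column per library. The submitters' processing notes name hg19, BWA and HISAT2, and their versions and roles, the counting tool and the annotation release were not given in the sources used here. Whole tags were recovered from the deposited CPM for 100, 100 and 99.99% of values in the siRNA 1, siRNA 2 and control libraries (tolerance 0.005 CPM). Of the compared members, 4 have values identical to another entry. The limit for 0 tags (3 tags) is 0.12 CPM.

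Ratios were log2 of (CPM + 1), a pseudocount that understates ratios of low genes. Errors are Poisson errors of tags, which need not be independent molecules. The tag comparison of library pairs used an exact two-sided binomial test. edgeR 4.0.16 and limma 3.58.1 ran in R 4.3.3, the rest in Python 3.11.15 with pandas 2.3.3 and scipy 1.17.1, and the counts past a fold, the binomial test and both models were tested on simulated data. Copies and 3′ UTRs came from GRCh37 with lifted GENCODE, where 67 members were found. The member rule uses gene names alone, but this rule, the lists and the tests were chosen with earlier results of these data known. Named genes were RAB11A, the highest level and extreme ratios of each class, the 10 largest and 10 smallest summed ratios, the 5 extremes between siRNAs, shared or copied entries and the extremes of each list. HNRNPC, HNRNPU, HNRNPK, SRSF1, SRSF3, SRSF9, SNRPC and SF3B1 were added for their roles after their values were seen. Of the members, 1 enters the counts and medians but is not reported here by itself.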

Additional observations from a re-analysis of the deposited data

How the results depend on the processing

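Results were recomputed with a pseudocount of 0.5 or 5 CPM, with a minimum mean of 1 or 20 CPM or none, with TMM or median-ratio scaling, after leaving out shared, retrocopy or copied entries or HNRNPU-AS1, and by the binomial, limma and edgeR tests. Leaving out copied entries and HNRNPU-AS1 was chosen after seeing the data. Of single-gene ratios under the pseudocounts and scalings, 757 moved by less than their counting interval and 47 by more, under a scaling only. No ratio past the 25% or 20% mark changed sign, but under either scaling ratios within 0.031 of 0 did, for 5 members with siRNA 1 (such as HNRNPC and SRSF9), 4 with siRNA 2 (HNRNPD, PRPF38B, SF3B5 and SRSF5) and 6 between the siRNAs. TMM shifted all ratios by 0.02, 0.05 and -0.02 for siRNA 1 to control, siRNA 2 to control and siRNA 1 to siRNA 2. Of the counts, 16 moved by over 1.5 times. Without copied members, 5 were higher (10.4%, against 10.2% of all genes) and 0 lower with siRNA 1, and 2 were higher (4.17%, against 6.0%) and 4 lower (8.33%, against 11.2%) with siRNA 2. Without entries identical to another, 3 were lower with siRNA 2 and 1 was higher with siRNA 1 than siRNA 2, and that second count was also 1 at a pseudocount of 5 CPM and at a minimum mean of 20 CPM. Under the main settings, 11.2% of all genes were lower with siRNA 2 than control and 6.34% higher with siRNA 1 than siRNA 2. With a minimum mean of 1 CPM or no filter, 1 member (SRSF12) was lower with siRNA 1 than control and 1 lower than with siRNA 2. The shares of all genes under the main settings were 11.6% and 4.0%. The binomial test at an adjusted p of 0.05, which compares these libraries and not the conditions, called 27 members higher and 17 lower for siRNA 1 over control, 24 higher and 26 lower for siRNA 2 over control, and 31 higher and 11 lower for siRNA 1 over siRNA 2. Those binomial calls become more frequent with the level of a gene. No paired analysis was possible because each group has 1 library. Members of a few CPM, such as SRSF12 and U2AF1L4, are limited by depth.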
